A study of Danio rerio with 14 samples.

Results

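The genes described here encode the nuclear subunits of mitochondrial respiratory complexes II to V, cytochrome c, and several factors that help to build complexes II and IV. Members were chosen by a rule on gene symbols, set with earlier results of these data known. It names the succinate dehydrogenase genes (sdha to sdhd and the sdhaf factors), the uqcr genes and cyc1. It also names the cytochrome c genes (cycs), the cox genes with a numbered name, and the atp5 genes. This rule took 58 of the 31014 features in the tables. They comprised 47 subunit genes, 2 cytochrome c genes, 8 assembly factors and atp5s, named for a coupling factor of the ATP synthase.

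The study asked how residual myocytes of an injured extraocular muscle change their transcripts before they divide again. RNA was measured in the lateral rectus (LR), which abducts the eye, of adult zebrafish of the genotype actin:GFP, in which an actin promoter drives a fluorescent protein in muscle. The groups were CON, LR muscle at 0 hours post injury (hpi) and thus uninjured (4 libraries), H9, LR muscle at 9 hpi after part of the muscle had been cut away (5 libraries), and H18, the same at 18 hpi (5 libraries). All 3 groups carried the transgene, and each library pooled LR tissue of several fish, cut from frozen sections of decalcified heads by laser microdissection, so the values are averages over animals and over every cell type in the cut tissue.

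Complex II (succinate dehydrogenase) passes electrons from succinate to ubiquinone and is also an enzyme of the citrate cycle. Complex III passes them on to cytochrome c, and complex IV (cytochrome c oxidase) passes them from cytochrome c to oxygen. Complexes III and IV pump protons across the inner mitochondrial membrane, and complex V (ATP synthase) uses the returning protons to make ATP. Extraocular muscles work almost without rest and are known for their high content of mitochondria. The core subunits of complex IV and some subunits of complexes III and V are encoded in the mitochondrial genome and were not analysed here.

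Levels are given as FPKM, fragments per kilobase of transcript, scaled between libraries by the upper quartile of their counts, which the authors' software reported as 1 value per group and feature. No error or number of replicates is attached to these values, the depth of the libraries behind them is unknown here, and no difference below was tested. A ratio between groups is the log2 of FPKM plus 0.1 in one group over FPKM plus 0.1 in the other, a scale that understates the change of genes with low FPKM. A gene was counted as higher or lower when the ratio was at least 1.5-fold, among the 13447 features with a mean of at least 1 FPKM over the 3 groups. Of the 58 members, 55 reached that mean. The other 3 were cycsa, listed at 0 in every group, sdhda, with 0.0137, 0.0583 and 0 FPKM in CON, H9 and H18, and sdhaf1, with 0.291, 1.42 and 0.859 FPKM.

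The respiratory genes were among the most abundant transcripts of the uninjured muscle, and most of them were much less abundant at both times after injury. Of 46 subunit genes with enough FPKM, 31 were at 20 to 40% of their CON level in H9 and 26 in H18, while 8 and 12 were below that range and 7 and 8 above it. Summed over the 58 members, CON had 14099 FPKM, H9 had 3476 and H18 had 3656. Of the 500 features with the highest FPKM in each group, 41 were members in CON, 34 in H9 and 30 in H18. In H9 against CON, 46 of the 55 members were lower by at least 1.5-fold, beside 31.4% of all features, and 0 were higher, beside 34.9% of all features. In H18 against CON, 49 were lower (34.7% of all features) and 2 were higher (32.8% of all features). Both comparisons use the same CON values. The median log2 ratio of the members was -1.79 in H9 against CON and -1.70 in H18 against CON, where the medians of all features were 0.09 and -0.01. In bulk tissue, fewer muscle fibers in the cut area and less of these transcripts per fiber cannot be told apart.

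**Figure D1:**
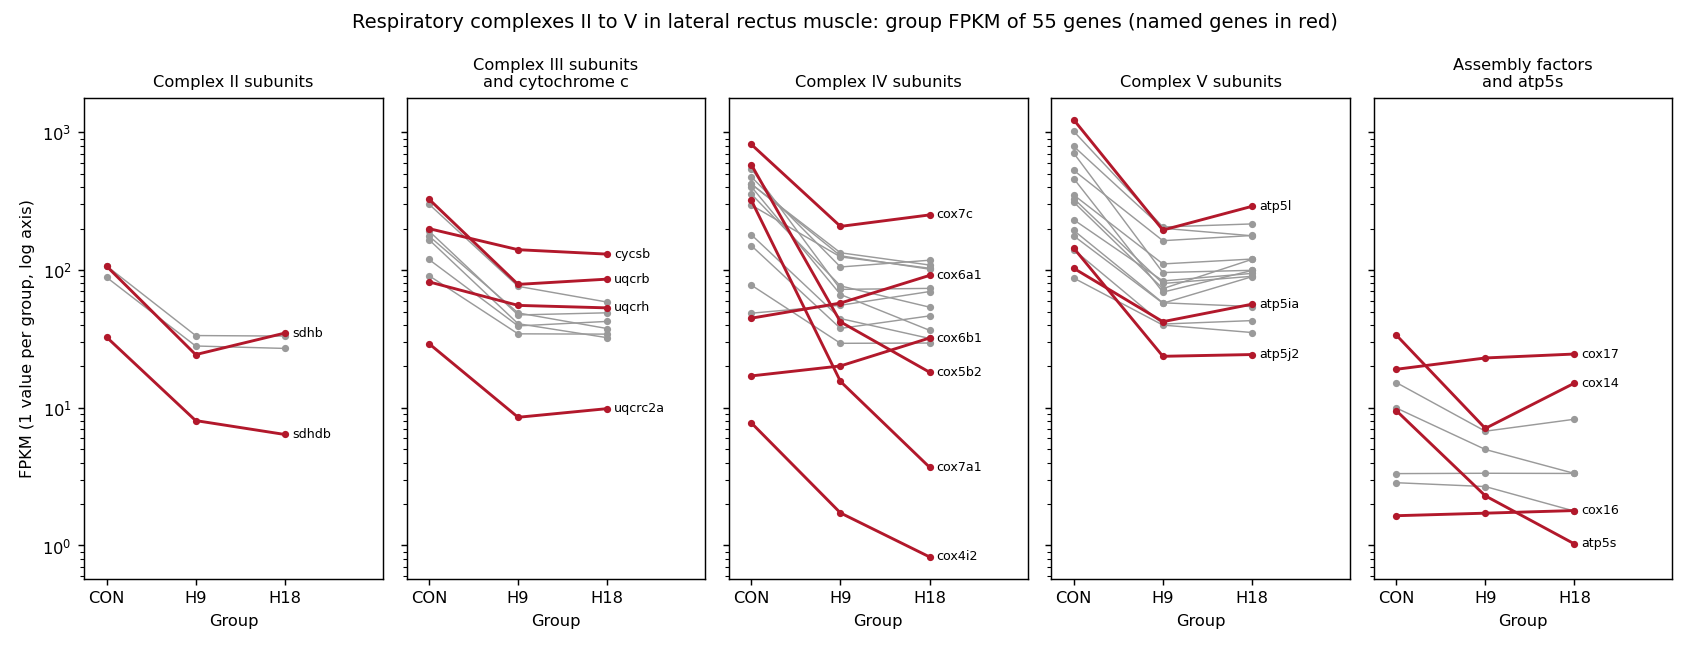
Group FPKM (log axis, 1 value per group) of the 55 members with a mean of at least 1 FPKM, in CON, H9 and H18, by complex; each line is 1 gene and the genes labelled are drawn in red. Of the 46 subunit lines, 43 are lower in H9 and in H18 than in CON, while cox6a1 and cox6b1 climb to 91.5 and 32.1 FPKM in H18 and cox7a1 drops to 3.70 FPKM.

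Transcripts that mark muscle fibers and other cell types also differed between the groups. Against CON, 31.4% of all features were lower and 34.9% higher by 1.5-fold in H9, and 34.7% and 32.8% in H18. Of 14 muscle fiber markers, 12 were lower by 1.5-fold in H9 than in CON and 12 in H18 than in CON (1 higher), with median log2 ratios of -2.87 and -3.47. Together they had 17387, 2231 and 1286 FPKM in CON, H9 and H18. The 2 not lower at either time were tnnt3a, a troponin at 1.29, 1.12 and 2.15 FPKM, and desma, a desmin at 146, 138 and 191 FPKM, named after their values were seen. Of 15 leukocyte markers, 11 were higher in H9 and 13 in H18 than in CON, and 2 were lower at each time. These 2, the antigen presentation genes cd74a (159, 79.7 and 47.6 FPKM) and cd74b (104, 64.9 and 40.1 FPKM), had the highest mean FPKM of the list over the 3 groups, although coro1a, an actin-binding protein of leukocytes, was above both in H18 (14.2, 76.7 and 92.6 FPKM). All 15 together had 312, 366 and 355 FPKM, none being listed at 0. The other marker lists had summed FPKM of 204, 199 and 143 in CON, H9 and H18 for erythrocytes, 31.3, 9.08 and 1.88 for retina, 158, 117 and 133 for fibroblasts, 23.7, 36.0 and 17.7 for endothelium, 186, 58.1 and 35.5 for myelin and glia, and 76.3, 40.1 and 18.6 for epidermis. The erythrocyte sums came mostly from hbaa1, a hemoglobin gene (188, 178 and 135 FPKM), and only 4 of the 8 symbols listed were found. For retina, rho held most of the CON sum (26.9 FPKM), and only 2 of 8 genes reached the minimum mean. Muscle markers were present in every group, as the tissue label says, among them ckmb, a muscle creatine kinase, at 4316, 516 and 267 FPKM, and actc1b, an actin, at 3839, 577 and 311 FPKM in CON, H9 and H18. The part of these marker changes in the lower respiratory transcripts was not tested.

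Complex II was lower by 1.5-fold at both times in each subunit that reached the minimum mean. Of all features, 31.4% were lower in H9 and 34.7% in H18. The catalytic flavoprotein subunit of complex II, sdha, had 88.7, 28.1 and 27.0 FPKM in CON, H9 and H18. Its log2 ratio was -1.65 in H9 and -1.71 in H18 against CON. The iron-sulfur subunit, sdhb, had 107, 24.3 and 34.9 FPKM, with ratios of -2.13 and -1.61. The membrane anchor sdhc had 107, 33.5 and 33.2 FPKM, and the anchor sdhdb had 32.6, 8.07 and 6.40 FPKM. The log2 ratios of these 4 subunits lay between -1.65 and -2.13 in H9 and between -1.61 and -2.33 in H18. Of the duplicated anchor genes sdhda and sdhdb, sdhdb held nearly the whole FPKM in every group. The factor sdhaf2, which helps to attach the flavin to sdha, had 15.3, 6.76 and 8.26 FPKM. Its ratios of -1.16 and -0.88 were smaller in size than those of the 4 complex II subunits that reached the minimum mean.

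Complex III was lower too, by less than 1.5-fold only for 1 subunit in H9. Its median log2 ratio was -1.85 in H9 and -1.93 in H18 against CON. Of 9 subunits, 8 were lower by 1.5-fold in H9 (31.4% of all features) and 9 in H18 (34.7% of all features). The core subunit uqcrc1 had 167, 40.8 and 32.3 FPKM in CON, H9 and H18. Of the duplicated core genes, uqcrc2a had 29.3, 8.53 and 9.86 FPKM and uqcrc2b had 91.2, 34.4 and 34.3 FPKM. Of the electron-carrying subunits, uqcrfs1, the Rieske iron-sulfur protein, had 177, 48.9 and 37.6 FPKM, and cyc1, cytochrome c1, had 120, 39.3 and 42.4 FPKM. Their log2 ratios against CON were -1.85 and -1.60 in H9 and further apart in H18, at -2.23 and -1.49. The small subunit uqcrb was the most abundant in CON and had the lowest ratio in H9, with 328, 78.7 and 86.0 FPKM. The small subunit uqcrq, with 302, 76.2 and 58.6 FPKM, was close to it in CON and further below it in H18. At the other end stood uqcrh, the hinge protein that helps cytochrome c to dock, with 82.2, 55.4 and 53.2 FPKM and log2 ratios of -0.57 and -0.63. Cytochrome c itself, the mobile carrier between complexes III and IV, was also closer to its CON level than most subunits: cycsb had 200, 141 and 131 FPKM, with ratios of -0.51 and -0.61.

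Among the 55 members with a mean of at least 1 FPKM, complex IV held both the lowest ratios and the only members higher than in CON by 1.5-fold. Its median log2 ratio was -1.99 in H9 and -2.01 in H18 against CON. At each time 14 of 17 subunits were lower by 1.5-fold, beside 31.4% of all features in H9 and 34.7% in H18. The subunit most abundant in CON was cox7c, with 818, 208 and 252 FPKM in CON, H9 and H18. The lowest ratio of all 55 members belonged to cox7a1 (chromosome 15, 20467348 to 20470064, GRCz10), with 321, 15.5 and 3.70 FPKM. In the FPKM as deposited, it was 20.6-fold lower in H9 and 86.7-fold lower in H18 than in CON. Next came cox5b2 (chromosome 13, 50062557 to 50064798), with 582, 42.1 and 18.1 FPKM, 13.8-fold and 32.1-fold lower. The subunits cox7b, with 544, 72.4 and 73.7 FPKM, and cox6c, with 423, 127 and 102 FPKM, were lower at both times and differed by less than 1.5-fold between H18 and H9. The 3 subunits that were not lower were cox6a1, cox6b1 and cox8a. The first, cox6a1 (chromosome 8, 39726530 to 39732218), had 44.8, 57.6 and 91.5 FPKM, with log2 ratios of 0.36 in H9 and 1.03 in H18 against CON. Both cox6b1, with 17.0, 20.1 and 32.1 FPKM, and cox8a, with 48.6, 55.5 and 69.9 FPKM, were above their CON level at both times. For cox6b1 the ratios were 0.24 and 0.91, and for cox8a they were 0.19 and 0.52, the last under the 1.5-fold limit.

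**Figure D2:**
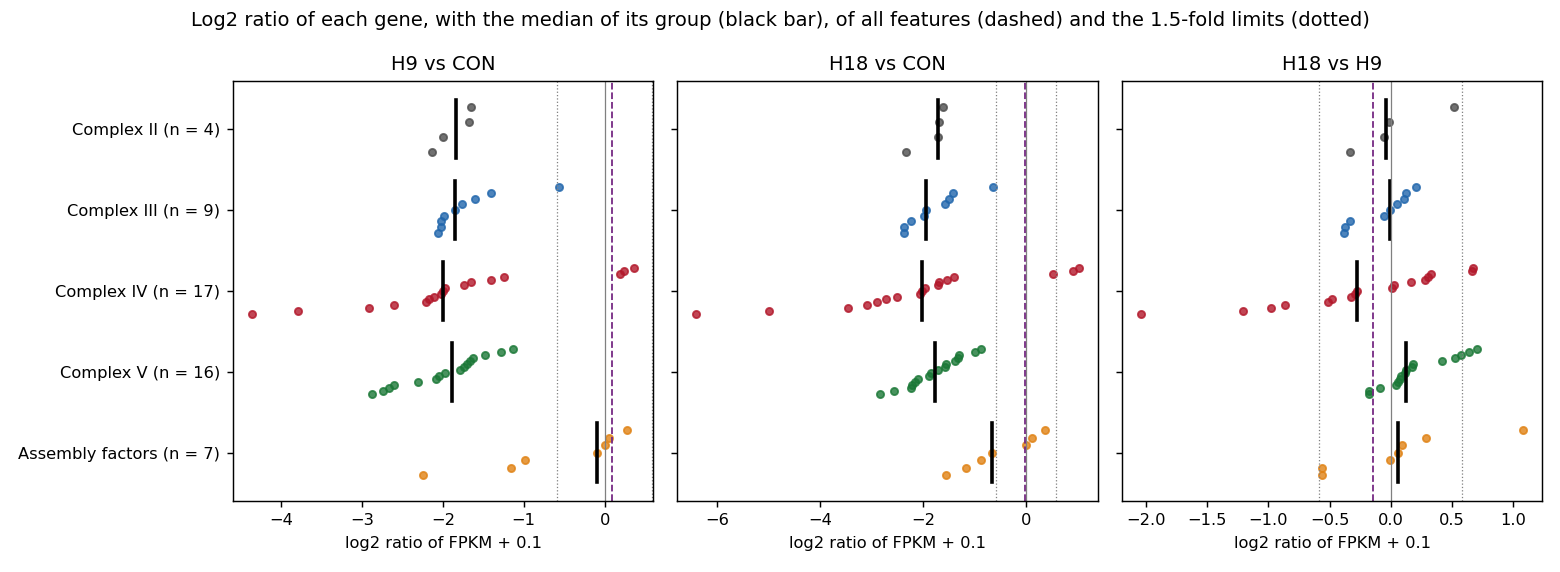
Log2 ratio of FPKM + 0.1 in H9 against CON, H18 against CON and H18 against H9. Points are subunits, by complex, and assembly factors with a mean of at least 1 FPKM. The genes cycsb and atp5s are not drawn. Black bars are group medians, the dashed line is the median of all features and dotted lines mark 1.5-fold. In the comparisons with CON the subunit medians lie between -1.70 and -2.01, and complex IV has the widest spread, from -4.36 to 0.36 in H9 and from -6.40 to 1.03 in H18.

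Several complex IV subunits exist as isoforms or duplicates, and the genes higher after injury were partners of genes that were much lower. In mammals COX6A2, COX7A1 and COX8B are the forms of heart and skeletal muscle, while COX6A1, COX7A2 and COX8A are made in most tissues; the same division of roles is not established here for the fish genes. In the 6a pair, cox6a2 had 356, 76.8 and 53.8 FPKM in CON, H9 and H18, against the values of cox6a1 above. Of the summed FPKM of the pair, cox6a1 made up 11.2%, 42.9% and 63.0% in CON, H9 and H18. In the subunit 8 pair, cox8b had 403, 66.5 and 36.5 FPKM, and the share of cox8a was 10.8%, 45.5% and 65.7%. In both pairs the gene with the smaller share in CON had the larger share in H18. Whether shares changed within muscle fibers or with the mix of cell types was not tested, here or in the sets below.

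The 7a genes gave the same picture with 1 more gene. In CON cox7a1 made up 67.1% of their summed FPKM, in H9 23.0% and in H18 5.01%. The other large share belonged to cox7a2a, which had 150, 37.7 and 46.5 FPKM and was itself lower at both times, yet its share was 31.5%, 55.9% and 62.9% in CON, H9 and H18. A gene listed as LOC100535363, which the RefSeq table names cox7a2b and which the symbol rule does not take, had 6.52, 14.2 and 23.7 FPKM, with log2 ratios of 1.11 and 1.85. The related gene cox7a3, named cox7a2l in the RefSeq table, had 77.8, 29.4 and 29.5 FPKM. It was counted among the complex IV subunits above but not in the 7a set. Despite the higher minor forms, the summed FPKM of each set stayed below CON: in H9 and H18 it was 33.5% and 36.3% of CON for 6a, 14.1% and 15.5% for 7a, and 27.0% and 23.5% for subunit 8.

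The other 4 sets kept their main gene. In the 6b pair, cox6b2, whose mammalian counterpart is known from testis, had 475, 105 and 118 FPKM, and the share of cox6b1 was 3.46%, 16.0% and 21.4% in CON, H9 and H18. Subunit 4 was mainly cox4i1, with 420, 134 and 109 FPKM and 88.1%, 89.3% and 94.0% of the set in CON, H9 and H18. Its relatives were lower still: LOC402880 (cox4i1l in the RefSeq table) had 49.0, 14.3 and 6.13 FPKM, and cox4i2, known in mammals as a form of the lung and of low oxygen, had 7.77, 1.72 and 0.826 FPKM. Of the 5a duplicates, cox5aa had 296, 125 and 103 FPKM and cox5ab had 181, 44.5 and 31.9 FPKM. In the 5b set cox5b2 had at least 98.4% of the FPKM in each group, LOC100002384 (cox5bb) had 2.03, 0.648 and 0.289 FPKM, and the set as a whole was at 7.31% of CON in H9 and 3.15% in H18.

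**Figure D3:**
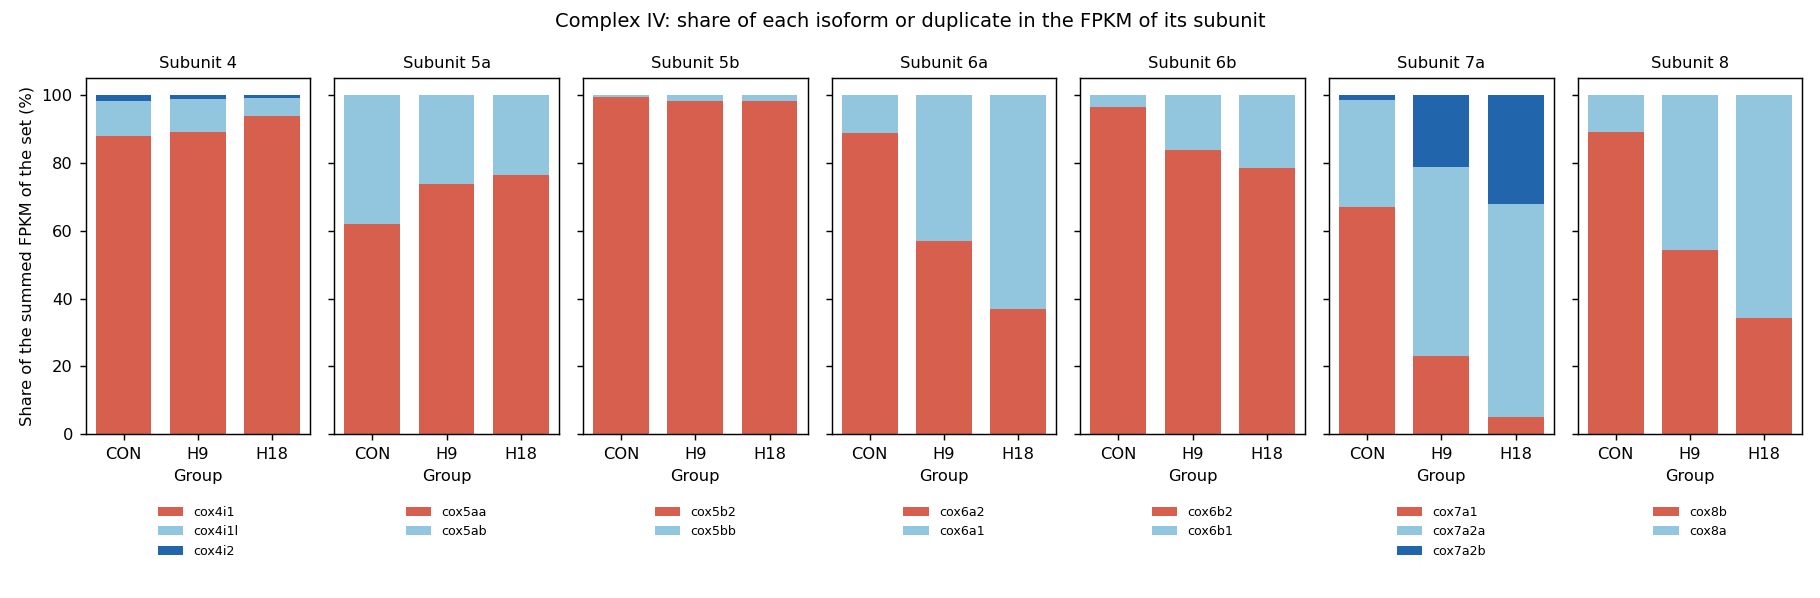
Share of each isoform or duplicate in the summed FPKM of its complex IV subunit (%), in CON, H9 and H18, for 7 sets; genes listed under a LOC name carry their RefSeq symbol. The share of cox6a1 is 11.2%, 42.9% and 63.0%, that of cox8a 10.8%, 45.5% and 65.7%, and that of cox7a1 67.1%, 23.0% and 5.01%, while cox4i1 and cox5b2 remain the main gene of their sets.

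Complex V had no exception. Its 16 subunits were all lower by 1.5-fold at both times, beside 31.4% of all features in H9 and 34.7% in H18. Their median log2 ratio was -1.88 in H9 and -1.77 in H18 against CON. Of the F1 head, which makes the ATP, the alpha subunit atp5a1 had 530, 164 and 178 FPKM in CON, H9 and H18, and the catalytic beta subunit atp5b had 792, 201 and 178 FPKM. The gamma subunit atp5c1, the central shaft, had 330, 80.0 and 90.2 FPKM, and the delta subunit atp5d had 177, 57.5 and 89.5 FPKM. The epsilon subunit atp5e had the lowest ratio of the complex, with 706, 96.0 and 99.7 FPKM and log2 ratios of -2.88 and -2.82. In the stalk that holds the head in place, atp5o had 351, 111 and 120 FPKM, atp5f1 had 232, 83.4 and 94.7 FPKM, atp5h had 311, 73.4 and 120 FPKM, and atp5j had 140, 40.6 and 43.0 FPKM. All 4 stalk genes were lower at both times, and all 4 had more FPKM in H18 than in H9, as had 5480 of the 13447 features.

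In the membrane part, 3 genes encode the same c subunit, whose ring turns as protons pass. The largest of them, atp5g3b, had 1018, 206 and 216 FPKM, atp5g1 had 462, 69.2 and 99.4 FPKM, and atp5g3a had 194, 57.9 and 54.4 FPKM. Their summed FPKM was 19.9% of CON in H9 and 22.1% in H18. The g subunit atp5l was the most abundant member of all 58 in CON, with 1235, 195 and 291 FPKM. The f subunit gene atp5j2, named atp5mf in the RefSeq table, had 144, 23.7 and 24.4 FPKM. Of the duplicated e subunit genes, atp5ib had the smallest change of the complex in H9 (87.5, 39.9 and 35.2 FPKM, -1.13 against CON) and atp5ia in H18 (103, 42.2 and 56.5 FPKM, -0.86 against CON). Outside the subunits, atp5s, named dmac2l in the RefSeq table, had 9.55, 2.29 and 1.03 FPKM and log2 ratios of -2.01 and -3.10.

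Assembly factors were lower than in CON less uniformly than subunits, with medians of -0.09 in H9 and -0.66 in H18 against -1.98 and -1.85 for the 46 subunits with a mean of at least 1 FPKM. Of the 7 factors with that mean, 3 were lower by 1.5-fold in H9 (31.4% of all features) and 4 in H18 (34.7% of all features), and 0 were higher (34.9% and 32.8% of all features). Such small counts do not set the factors apart from other features. The medians rest on few genes with low values: over the 4 factors with a mean of at least 5 FPKM the H9 median was -1.08, and the H18 median lay between -1.02 and -0.33 under the alternatives tried. The copper chaperone cox17 had 19.0, 23.0 and 24.6 FPKM, above its CON level at both times, with log2 ratios of 0.27 and 0.37. Of the heme A enzymes, cox10 had 9.97, 4.98 and 3.34 FPKM, while cox15 had 3.33, 3.35 and 3.33 FPKM. The factor cox16 had 1.64, 1.72 and 1.79 FPKM, and cox11, which helps to deliver copper, had 2.86, 2.68 and 1.78 FPKM. The most abundant factor in CON, cox14, had 33.8, 7.08 and 15.1 FPKM and the lowest ratio of the factors in H9, -2.24 against CON. In H18 the lowest was that of cox10, -1.55, and cox14 was at -1.16.

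Between the injured groups most members differed by less than 1.5-fold. In H18 against H9, 5 of 55 members were lower by 1.5-fold (24.7% of all features) and 5 were higher (15.5% of all features), and the median was 0.04 beside -0.15 for all features. Relative to the median of all features, 8 members were higher, beside 20% of all features. The subunits of complex V had a median of 0.12, and 13 of the 16 were above 0, beside 5480 of the 13447 features. Several of the 13 were only slightly above 0, such as atp5j2 (0.04) and atp5e (0.05). The summed FPKM of the complex V subunits in H18 was 116% of that in H9, with atp5h (120 FPKM in H18, 73.4 in H9) and atp5d past 1.5-fold. Complex IV had a median of -0.27, with cox7a1, cox5b2, cox4i2 and cox8b lower by 1.5-fold and cox6a1 and cox6b1 higher. Complexes II and III were near 0, at -0.04 and -0.01, and both medians are above 0 once the median of all features is subtracted (0.11 and 0.14). The remaining members past 1.5-fold were atp5s, lower, and cox14, higher.

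Genes of neighbouring functions were set beside the members. The shares of all features past 1.5-fold against CON were 31.4% lower and 34.9% higher in H9, and 34.7% and 32.8% in H18. All 36 genes listed for complex I that reached the minimum mean were lower at both times, with medians of -2.07 in H9 and -2.10 in H18 against CON. By mean FPKM over the 3 groups, the highest of them was ndufa4l, with 613, 102 and 73.2 FPKM in CON, H9 and H18. Next was ndufa13, with 192, 79.9 and 52.0 FPKM. The mammalian relative NDUFA4 is now counted with complex IV, but ndufa4 and ndufa4l were kept on the complex I list. Of 23 citrate cycle genes, 18 were lower and 4 higher in H9, and 19 were lower and 4 higher in H18. The 4 were aco1, idh1, ogdhb and suclg2 at both times, all named after their values were seen. By the same mean the highest were idh2 and mdh2: idh2 had 1022, 191 and 124 FPKM, and mdh2 had 464, 113 and 85.7 FPKM. Of 25 assembly factors whose symbols the rule does not take, 18 were lower and 1 higher at each time, with medians of -0.97 and -1.11. The higher one was higd1a in H9 and coa7 (2.18, 3.09 and 4.06 FPKM) in H18. The factors with the highest mean over the groups were higd1a and lrpprc: higd1a, which in mammals interacts with complex IV, had 25.9, 41.3 and 21.0 FPKM, and lrpprc, which stabilises mitochondrial transcripts, had 19.6, 15.1 and 11.9 FPKM. The genes of the ATP synthase inhibitor differed from each other: atpif1a had 50.7, 31.5 and 64.0 FPKM and atpif1b had 110, 32.1 and 35.2 FPKM.

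**Figure D4:**
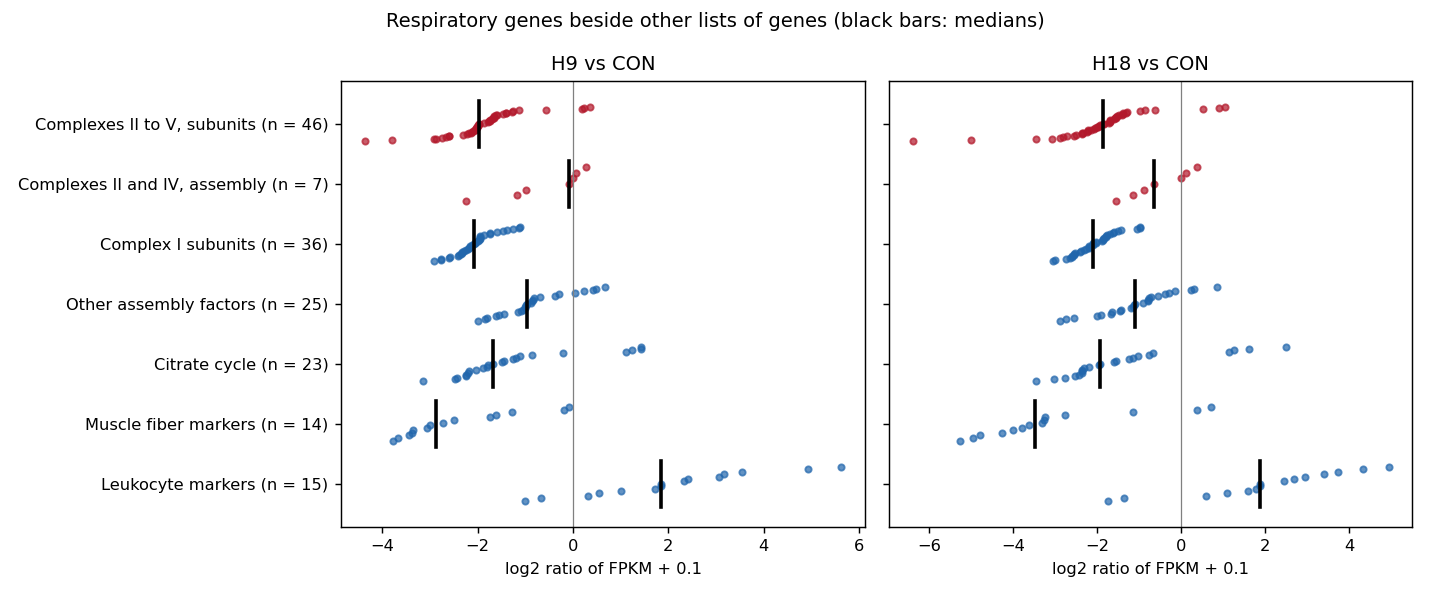
Log2 ratio of FPKM + 0.1 in H9 against CON and H18 against CON for member subunits and assembly factors (red) and for other lists of genes (blue). The members cycsb and atp5s are not drawn. Each point is 1 gene that reached the minimum mean and black bars are medians. The subunits of complexes II to V (medians -1.98 and -1.85) lie beside those of complex I (-2.07 and -2.10), muscle fiber markers lie lower (-2.87 and -3.47) and leukocyte markers higher (1.86 and 1.88).

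For 3 members the annotated locus was wider than 100 kb and overlapped other features: cox5ab (2126 kb, 32 features), uqcr11 (446 kb, 14 features; 192, 47.2 and 49.0 FPKM in CON, H9 and H18) and sdhb (170 kb, 14 features). Their FPKM may include reads of those features, as may the FPKM of genes with near-identical duplicates, and both are uncertain.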

How the data were processed

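RNA was measured in 4 CON, 5 H9 and 5 H18 libraries depleted of ribosomal RNA. According to the submitters' processing notes, FastQC 0.11.3, TopHat2 2.0.13, Bowtie2 2.2.1, Cufflinks and Cuffdiff 2.2.1 were used with the GRCz10 assembly. The authors deposited FPKM, 1 value for each feature in each group, computed with multi-read correction and scaled by the upper quartile over hits compatible with annotated transcripts. The authors' tables also hold fold changes, p-values, q-values and annotation, none of which was used here. A count table with 14 columns was not used because no column name matched a label, so no test between libraries was run. Group values were joined by feature. For 12 features a group's FPKM differed between tables, 0 of them members.

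Log2 ratios used a pseudocount of 0.1 FPKM, a mean of at least 1 FPKM and a fold of 1.5. Genes named were all complex II members, the most abundant and the most and least changed of each group, every member higher by 1.5-fold, the isoform sets, the main subunits of complexes III and V, and the 2 genes of each list of other pathways with the highest mean FPKM over the 3 groups. The other members (such as uqcrq, cox7b, cox11, cox15 and the stalk subunits of complex V) were named after their values were seen. Members and lists were chosen with earlier results of these data known. Symbols were compared with the RefSeq table of GRCz12tu by Entrez identifier (57 of 58 members found, 18 under another symbol), which also gave chromosome numbers for the sequences of GRCz10. Start positions are counted from 1. Alternatives were a fold of 2, pseudocounts of 0.01 and 1, a minimum mean of 5 FPKM or none, and centring on the median of all features. The procedure was tested on simulated data. Python 3.11.15, numpy 2.4.6, pandas 2.3.3 and matplotlib 3.10.9 were used.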

Additional observations from a re-analysis of the deposited data

How the results depend on the processing

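Under the alternatives, 134 recomputed counts and medians of the comparisons moved by less than 1.5 times and 7 moved by more. None past the 1.5-fold limit turned its direction. For a single gene none could, as a pseudocount keeps the sign of a ratio and a filter leaves the ratio unchanged. The medians subtracted in centring (0.09, -0.01 and -0.15) were too small to turn a ratio past that limit. No replicate spread was available here to judge the moves by. Without a filter, 1 member, the complex II assembly factor sdhaf1, was higher in H9 than in CON (30.9% of all features). With a minimum mean of 5 FPKM, the assembly factor median in H9 against CON was -1.08, and 3 members were lower in H18 than in H9 (23.3% of all features). Centred on the median of all features, 8 members were higher in H18 than in H9 (20% of all features). At a fold of 2, 1 member was higher in H18 than in CON (23.1% of all features), and 3 were lower (11.3%) and 1 higher (7.97%) in H18 than in H9. Of single genes, the H18 against CON ratios of cox4i2 and atp5s moved nearer to 0 with a pseudocount of 1. Both had low FPKM in H18 (0.826 and 1.03), where a pseudocount weighs most. No paired analysis was possible because each group has 1 value. The planned edgeR tests of counts were not run because the count columns were tied to no library.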

Other observations

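Regulators of mitochondrial genes included both higher and lower members. Of 23 such genes that reached the minimum mean, 11 were lower and 5 higher by 1.5-fold in H9 than in CON (31.4% and 34.9% of all features), and 13 were lower and 5 higher in H18 than in CON (34.7% and 32.8% of all features). By mean FPKM over the 3 groups the highest were mycb, a Myc transcription factor, with 6.95, 34.6 and 11.6 FPKM in CON, H9 and H18, and pparg, a nuclear receptor, with 4.22, 12.6 and 25.8 FPKM. Other genes were chosen after their values were seen. The coactivator ppargc1a had 14.4, 1.76 and 1.70 FPKM, and the nuclear receptors esrra and esrrga had 22.9, 8.71 and 5.88 FPKM and 27.4, 1.94 and 1.18 FPKM. The related coactivator pprc1 was higher, with 0.521 FPKM in CON and log2 ratios of 4.51 in H9 and 3.04 in H18 against CON. On the same list gabpa was higher too (2.35, 5.21 and 5.39 FPKM in CON, H9 and H18). By less than 1.5-fold at both times, nrf1 differed from CON (1.99, 1.95 and 1.69 FPKM), and tfam (2.62, 1.54 and 2.15 FPKM) was lower by 1.5-fold in H9 only.

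The mitochondrial genome was represented in the tables used here by 22 tRNA and 2 rRNA genes. In libraries depleted of ribosomal RNA, the small rRNA mt-rnr1 had 17611, 25039 and 12305 FPKM in CON, H9 and H18, and the large rRNA mt-rnr2 had 20124, 32986 and 13788 FPKM.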
